A study of Mus musculus with 12 samples.

Results

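The 10 genes described here are those of goblet cell mucus and goblet cell fate: Muc2, Fcgbp, Clca1, Zg16, Tff3, Agr2, Spdef, Atoh1, Bcas1 and Capn9. They were taken as the probe sets whose platform annotation names exactly 1 gene, that gene being among the 10, and each gene had 1 such probe set, so the set holds 10 of 23991 probe sets and 10 of the 21408 genes that a probe set names alone. The study asked how tauroursodeoxycholic acid (TUDCA), a taurine-conjugated bile acid, acts on acute graft-versus-host disease of the gut. Wild-type BALB/c mice had been irradiated over the whole body and had received bone marrow and T cells of C57BL/6N donors (allo-HCT, allogeneic haematopoietic cell transplantation), and their small intestine was taken on day 14. The TUDCA group (6 arrays) received 200 mg/kg TUDCA in water for injection every day into the peritoneum, and the vehicle group (6 arrays) received the same volume of 200 µl vehicle. All 12 mice carried the same allogeneic graft, so both groups are groups of transplanted mice, and no untransplanted or syngeneic intestine was analysed here.

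Goblet cells are the mucus-secreting cells of the intestinal epithelium. They arise from crypt progenitors in which the transcription factor Atoh1 is switched on once Notch signalling is low, and Spdef, a factor downstream of Atoh1, drives their maturation. Their granules hold the gel-forming mucin Muc2, which is folded in the endoplasmic reticulum with the help of the disulfide isomerase Agr2, and several proteins that become part of the mucus layer: the Fc gamma binding protein Fcgbp, the mucus-processing protease Clca1, the lectin-like Zg16 and the trefoil peptide Tff3. Loss of goblet cells and thinning of mucus are known features of intestinal graft-versus-host disease in mice.

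Each array gave 1 log2 value per probe set, already normalised by the authors. All 12 arrays were closely alike (correlations from 0.984 to 0.993 across probe sets). By the number each mouse carries in the labels, the arrays form a low number range (2 TUDCA and 4 vehicle arrays) and a high number range (4 TUDCA and 2 vehicle arrays), so each difference was estimated within these ranges. In the labels, 1 field names CXCL12-abundant reticular cells of bone marrow. The epithelial genes Epcam (12.04 in TUDCA, 12.12 in vehicle arrays) and Vil1 (12.12 and 12.23 in that order) stood among the brightest probe sets. The mean over 8 reticular cell genes lay from 6.29 to 6.65 in TUDCA and from 6.15 to 6.63 in vehicle arrays. None of the 8 passed the test between groups, which does not bear on the tissue measured. Because whole intestine was measured, fewer goblet cells and less RNA per goblet cell cannot be told apart in any value below.

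In the intestine of TUDCA-treated mice, 4 of the 10 genes were higher than in vehicle-treated mice and none was lower. They were the fate factor Spdef, the mucin-folding enzyme Agr2, and Bcas1 and Capn9, by 1.30-fold to 1.51-fold. The genes of the secreted mucus proteins themselves did not pass the test, and Fcgbp and Clca1 had differences close to 0. Over all probe sets, 1.00% were higher and 1.52% lower by the same rule, an adjusted p under 0.05 in limma with Benjamini-Hochberg adjustment over all 23991 probe sets. With arrays centred on genes of all epithelial cells, the calls over all probe sets were 125 higher and 339 lower, against 241 higher and 364 lower as deposited, and 3 of the 10 genes were higher. The median log2 difference of the 10 genes was 0.28, beside 0.010 for all probe sets. At an unadjusted p under 0.05, 7 of the 10 genes were higher, where 7.24% of all probe sets were. Of the 10 genes, 9 had a difference above 0, as did 12789 of the 23991 probe sets. In both number ranges 8 of the 10 had a difference above 0, where 30.1% of all probe sets did.

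**Figure D1:**
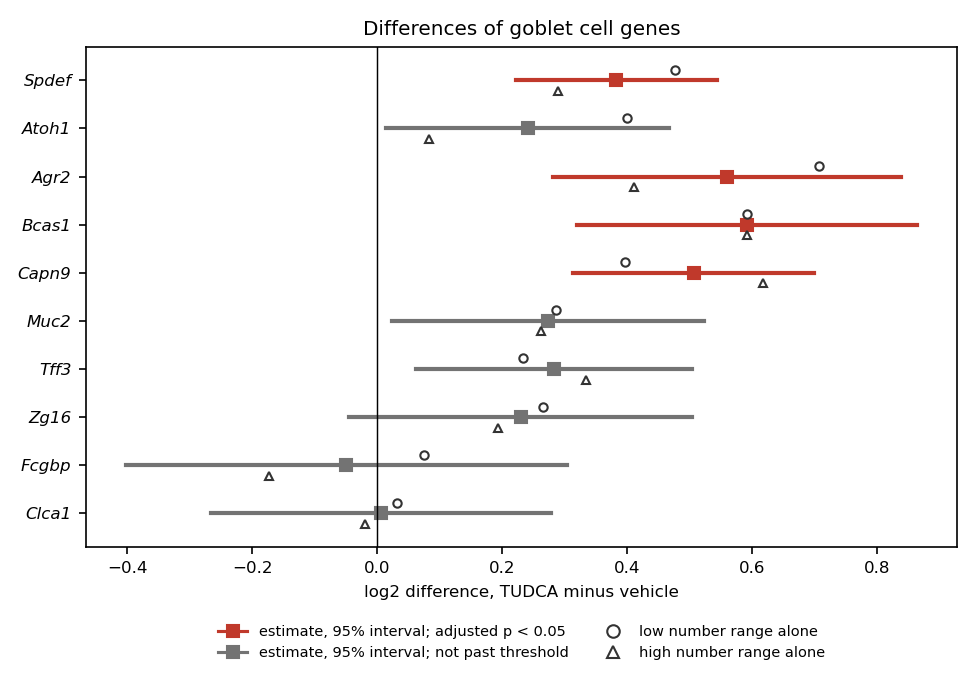
Log2 difference, TUDCA minus vehicle (x axis), of the 10 goblet cell genes (rows); squares and lines are the estimates and 95% intervals over 12 arrays, circles and triangles the differences of means within the low and high number ranges. The intervals of Spdef, Agr2, Bcas1 and Capn9 lie wholly above 0 and pass the adjusted test, those of Atoh1, Muc2 and Tff3 lie above 0 without passing it, and Fcgbp and Clca1 sit at -0.049 and 0.0060.

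Of the 4 genes that rose, Spdef, Agr2 and Capn9 have a promoter in the RefSeq table (build GRCm38.p6, of the strain C57BL/6J). Of those that did not pass, Muc2, Fcgbp and Atoh1 have one. All of these but Atoh1 are shown for comparison, as windows from 250 bases before to 50 after the annotated start. They lie at chr17:27728902-27729201 (minus strand) for Spdef, chr12:35992675-35992974 (plus strand) for Agr2, chr8:124575861-124576160 (plus strand) for Capn9, chr7:141690090-141690389 (plus strand) for Muc2 and chr7:28070986-28071285 (plus strand) for Fcgbp. Each is written 5′ to 3′ on the strand of its gene, and capitals mark matches, on either strand, to 1 of 7 motifs. These were the E-boxes CAGCTG and CAGNTG (the first is 1 form of the second), the ETS cores CCGGAA and CCGGAT, the forkhead motif TGTTTNC, the N-box CACNAG and the TATA box TATAAA.
Spdef: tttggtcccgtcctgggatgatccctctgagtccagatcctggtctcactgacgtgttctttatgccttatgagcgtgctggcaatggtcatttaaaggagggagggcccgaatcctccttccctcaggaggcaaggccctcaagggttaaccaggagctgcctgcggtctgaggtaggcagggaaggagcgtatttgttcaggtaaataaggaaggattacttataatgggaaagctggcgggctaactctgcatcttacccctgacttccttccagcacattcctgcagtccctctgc
Agr2: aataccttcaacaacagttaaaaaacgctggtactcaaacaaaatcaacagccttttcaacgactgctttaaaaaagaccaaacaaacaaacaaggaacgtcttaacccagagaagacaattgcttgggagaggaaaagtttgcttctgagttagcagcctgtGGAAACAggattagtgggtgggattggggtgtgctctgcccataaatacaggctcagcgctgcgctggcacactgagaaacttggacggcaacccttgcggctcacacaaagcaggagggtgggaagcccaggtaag
Capn9: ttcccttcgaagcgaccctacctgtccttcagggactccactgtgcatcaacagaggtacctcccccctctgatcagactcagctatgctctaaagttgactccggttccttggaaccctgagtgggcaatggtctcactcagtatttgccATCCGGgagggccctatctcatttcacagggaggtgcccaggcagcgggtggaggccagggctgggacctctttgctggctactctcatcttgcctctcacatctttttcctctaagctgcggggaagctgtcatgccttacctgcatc
Muc2: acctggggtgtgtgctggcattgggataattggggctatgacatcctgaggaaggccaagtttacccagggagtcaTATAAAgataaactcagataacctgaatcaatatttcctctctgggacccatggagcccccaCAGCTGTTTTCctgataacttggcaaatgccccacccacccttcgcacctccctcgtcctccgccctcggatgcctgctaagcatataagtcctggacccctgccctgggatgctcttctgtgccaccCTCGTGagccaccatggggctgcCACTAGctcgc
Fcgbp: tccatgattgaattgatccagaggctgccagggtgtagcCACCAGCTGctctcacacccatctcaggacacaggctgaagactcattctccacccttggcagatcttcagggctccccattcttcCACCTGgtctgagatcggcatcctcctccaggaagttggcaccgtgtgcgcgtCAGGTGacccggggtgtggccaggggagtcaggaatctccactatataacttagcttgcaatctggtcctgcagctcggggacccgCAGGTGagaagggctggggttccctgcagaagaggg
Of the 10 genes 6 had a promoter in the table. An E-box of the form CAGNTG, the type of site bound by basic helix-loop-helix factors such as Atoh1, was present in 2 of these 6 (Muc2 and Fcgbp) and in 51.4% of all 32851 promoters. Both of the 2 also held CAGCTG (16.3% of all promoters), and in Muc2 it overlapped the forkhead match. The promoter of Capn9 held CCGGAT, the ETS core form preferred by Spdef, on its opposite strand, as did 6.04% of all promoters. None of the 6 held CCGGAA (14.9% of all promoters). The promoter of Agr2 held a forkhead match, as did that of Muc2 and 20.5% of all. The N-box was in those of Muc2, Fcgbp and Atoh1 (42.5% of all) and TATAAA in that of Muc2 (13.6% of all). The Spdef window held none of these letters. These are matches of letters in short windows and say nothing of binding.

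The fate factors were the transcription factors Spdef and Atoh1. Spdef, an ETS factor of secretory cell maturation, had log2 values from 7.51 over a median of 7.76 to 7.85 in TUDCA arrays, against 7.24, 7.35 and 7.46 for the lowest, median and highest vehicle arrays. All 6 TUDCA arrays lay above all 6 vehicle arrays. The log2 difference of Spdef was 0.38 ± 0.075 (SE, 95% interval 0.22 to 0.54, adjusted p = 0.0145 in limma), or 1.30-fold, with 0.48 in the low and 0.29 in the high number range. Groups did not overlap for 2 of the 10 genes, Spdef and Bcas1, and for 0.800% of all probe sets in the same direction (1.18% lower).

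Atoh1, the basic helix-loop-helix factor that commits progenitors to the secretory lineage, did not pass the test. Its log2 values ran from 8.17 over a median of 8.43 to 8.68 in TUDCA arrays, against 7.86, 8.26 and 8.40 for the lowest, median and highest vehicle arrays. The groups overlapped, and vehicle replicate 1 was the lowest. The log2 difference was 0.24 ± 0.11 (SE, 95% interval 0.015 to 0.47, adjusted p = 0.321 in limma), with 0.40 in the low and 0.083 in the high number range. A test of that difference between ranges gave no call (adjusted p = 0.731 in limma with an interaction term).

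Agr2, the disulfide isomerase of the endoplasmic reticulum that is needed for mucin production in mice, had log2 values from 11.23 over a median of 11.61 to 12.05 in TUDCA arrays. The lowest, median and highest vehicle arrays had 10.69, 11.22 and 11.48. The groups overlapped through TUDCA replicate 3, which lay below 3 of the vehicle arrays. The log2 difference was 0.56 ± 0.13 (SE, 95% interval 0.28 to 0.84, adjusted p = 0.0342 in limma), or 1.47-fold, with 0.71 in the low and 0.41 in the high number range. This call was the least stable of the 4: it ended when any 1 of 9 arrays was left out.

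Bcas1, a marker of goblet cells first named from amplified regions in breast cancer, had the largest difference of the 10 genes. Its log2 values ran from 8.01 over a median of 8.17 to 8.44 in TUDCA arrays, against 7.14, 7.72 and 7.98 for the lowest, median and highest vehicle arrays. No vehicle array reached a TUDCA array, although the gap between the groups was small. The log2 difference was 0.59 ± 0.13 (SE, 95% interval 0.32 to 0.86, adjusted p = 0.0235 in limma), or 1.51-fold, and it was 0.59 in each number range.

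Capn9, a calcium-dependent cysteine protease of the digestive tract, had log2 values from 6.53 over a median of 6.76 to 6.91 in TUDCA arrays. The lowest, median and highest vehicle arrays had 6.00, 6.38 and 6.63. The groups overlapped through the lowest TUDCA array, replicate 6. The log2 difference was 0.51 ± 0.090 (SE, 95% interval 0.31 to 0.70, adjusted p = 0.00776 in limma), or 1.42-fold, with 0.40 in the low and 0.62 in the high number range.

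**Figure D2:**
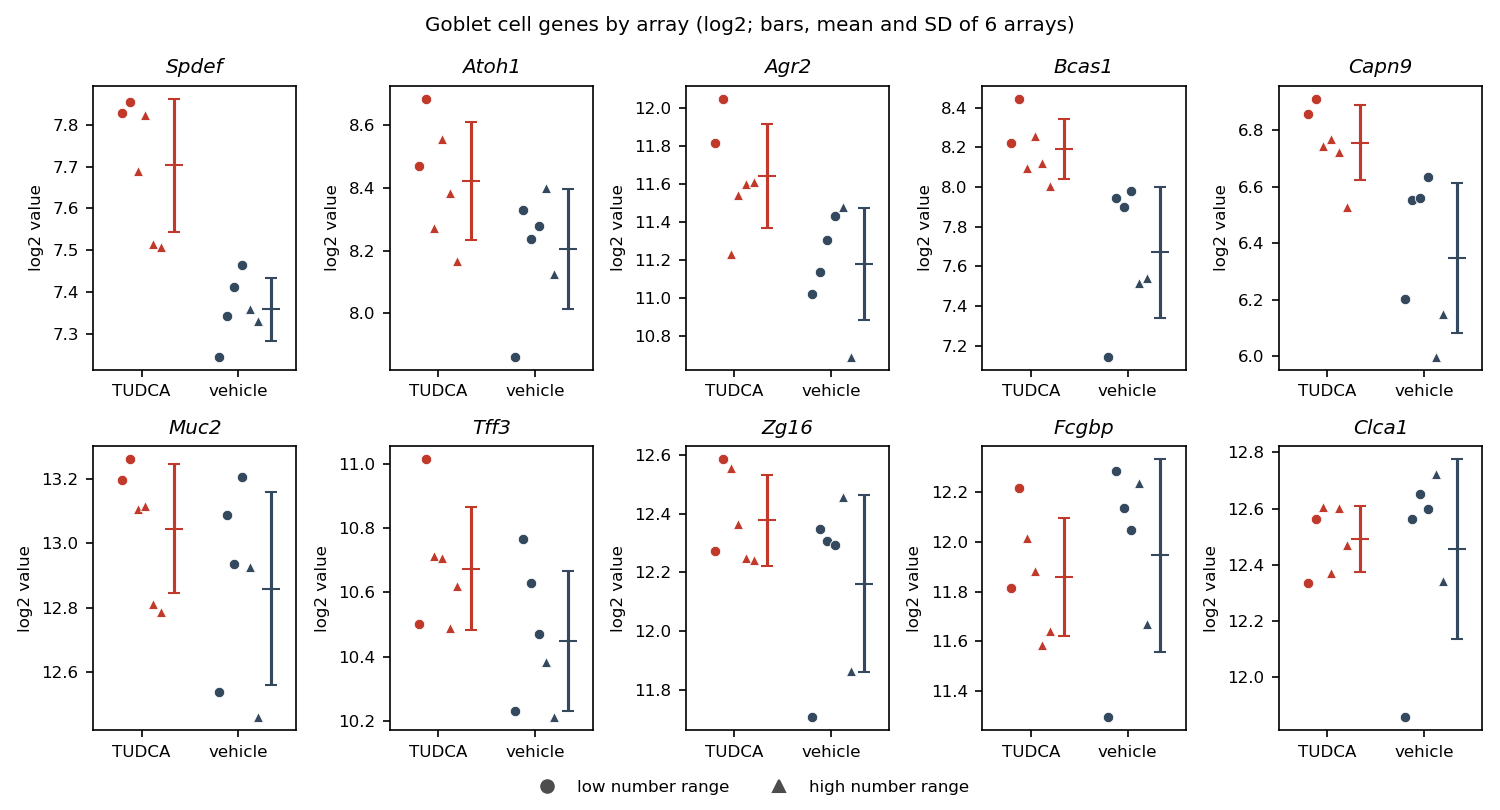
Log2 value (y axis, a scale of its own in each panel) of the 10 goblet cell genes in each of 6 TUDCA (red) and 6 vehicle (dark) arrays; circles and triangles are the low and high number ranges, bars the mean and SD. The groups are apart for Spdef and Bcas1 and overlap for the other 8 genes, and vehicle replicate 1, the leftmost dark circle, is the lowest vehicle array for 6 genes.

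Of the secreted mucus proteins, Muc2, Tff3 and Zg16 had positive differences that did not pass the test. Muc2, the mucin that forms the gel, had log2 values from 12.79 over a median of 13.11 to 13.26 in TUDCA arrays, against 12.46, 12.93 and 13.21 for the lowest, median and highest vehicle arrays. The groups overlapped over most of their range. The log2 difference of Muc2 was 0.27 ± 0.12 (SE, 95% interval 0.025 to 0.52, adjusted p = 0.3 in limma).

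Tff3, a trefoil peptide secreted with mucin that aids epithelial repair, had log2 values from 10.49 over a median of 10.66 to 11.01 in TUDCA arrays, against 10.21, 10.43 and 10.76 for the lowest, median and highest vehicle arrays. Here, too, the groups overlapped, and TUDCA replicate 2 stood highest. The log2 difference of Tff3 was 0.28 ± 0.10 (SE, 95% interval 0.063 to 0.50, adjusted p = 0.205 in limma). Zg16, a lectin-like protein that binds the walls of Gram-positive bacteria, had log2 values from 12.24 over a median of 12.32 to 12.59 in TUDCA arrays, against 11.71, 12.30 and 12.46 for the lowest, median and highest vehicle arrays. Its medians were nearly equal, and its difference came with 2 low vehicle arrays, replicates 1 and 6. The log2 difference of Zg16 was 0.23 ± 0.13 (SE, 95% interval -0.044 to 0.50, adjusted p = 0.46 in limma).

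Fcgbp and Clca1 did not pass the test in either direction. Fcgbp, a large mucus protein with von Willebrand factor domains, had log2 values from 11.58 over a median of 11.85 to 12.22 in TUDCA arrays, against 11.30, 12.09 and 12.29 for the lowest, median and highest vehicle arrays. Its TUDCA median was the lower of the 2, and only 2 of 6 TUDCA arrays exceeded the vehicle mean of their number range. The log2 difference of Fcgbp was -0.049 ± 0.17 (SE, 95% interval -0.40 to 0.30, adjusted p = 0.938 in limma).

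Clca1, a secreted metalloprotease that cleaves Muc2, had log2 values from 12.33 over a median of 12.52 to 12.60 in TUDCA arrays, against 11.86, 12.58 and 12.72 for the lowest, median and highest vehicle arrays. The TUDCA arrays fell inside the span of the vehicle arrays. The log2 difference of Clca1 was 0.0060 ± 0.13 (SE, 95% interval -0.27 to 0.28, adjusted p = 0.991 in limma). Whether the 10 genes differed from one another in their response was not tested. The 5 secreted proteins and Agr2 were among the brightest probe sets of the arrays, with mean values above 98.2% to 99.95% of all probe sets, against 60.1% to 84.5% for Spdef, Atoh1, Bcas1 and Capn9, and the part of brightness in these differences was not tested.

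The 10 genes varied together between arrays as well as between groups. Vehicle replicates 1 and 6 lay below the 12-array mean for all 10 genes, and vehicle replicate 1 was the lowest of all 12 arrays for 6 of them and vehicle replicate 6 for 3. TUDCA replicate 2 lay above the mean for all 10 and was the highest of all arrays for 8. With each gene centred on its 12-array mean, the average of the 10 genes was 0.37 in TUDCA replicate 2 and lay from -0.03 to 0.15 in the other TUDCA arrays. It was -0.48 and -0.35 in vehicle replicates 1 and 6 and lay from -0.04 to 0.05 in the other 4 vehicle arrays. Outside these 3 arrays the 2 groups thus overlapped in the mean. TUDCA replicate 2 also had the lowest T cell genes, with a mean of -1.30 on the same scale over 10 T cell genes, the other TUDCA arrays from -0.36 to 0.13. The part of T cell content in the goblet gene values was not tested.

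**Figure D3:**
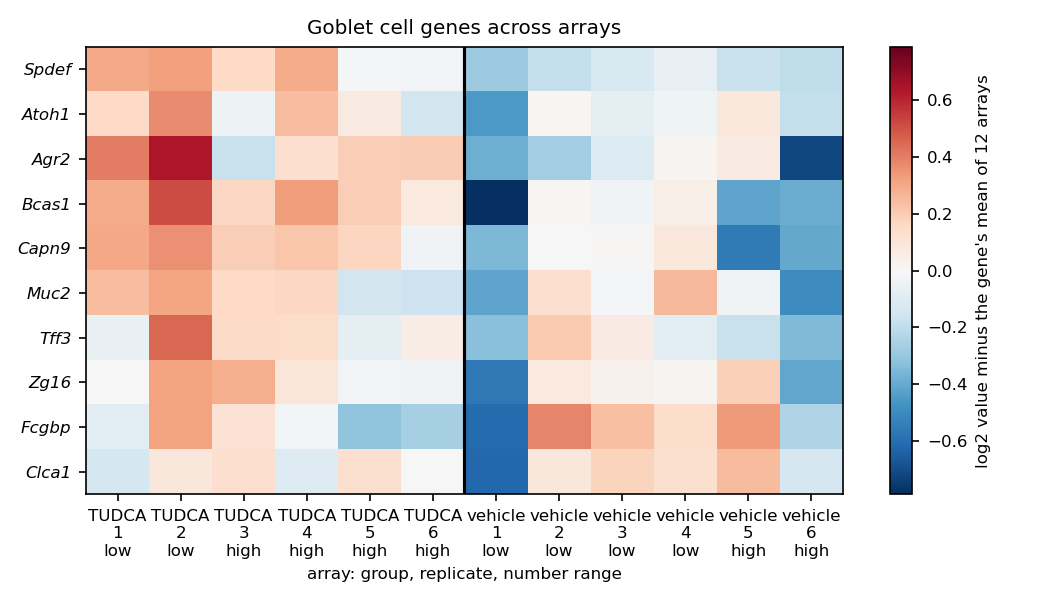
Log2 value after subtraction of each gene's 12-array mean (colour) for the 10 goblet cell genes (rows) in each array (columns, TUDCA left, vehicle right, with replicate and number range). TUDCA replicate 2 is above the mean and vehicle replicates 1 and 6 are below it for all 10 genes.

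In a fit without vehicle replicates 1 and 6 together, chosen after seeing the data, 2 of the 10 genes stayed past the threshold, Bcas1 (0.48, adjusted p = 0.018 in limma) and Capn9 (0.46, adjusted p = 0.042), beside 0.488% of all probe sets. Spdef kept its size (0.37, adjusted p = 0.0699), and Agr2 had 0.39 (adjusted p = 0.235). For Muc2 the difference was then 0.10, for Zg16 0.027 and for Clca1 -0.18, none past the threshold. With each array left out in turn, Capn9 passed in all 12 fits (adjusted p from 0.00737 to 0.0309 in limma). Leaving out TUDCA replicate 1 or TUDCA replicate 2 ended the call of Spdef, whose adjusted p reached 0.0711. The same 2 arrays, and vehicle replicate 6, each ended the call of Bcas1, whose adjusted p reached 0.0948. The call of Agr2 held without TUDCA replicate 3, vehicle replicate 4 or vehicle replicate 5 and ended without any of the other 9 arrays (adjusted p up to 0.148). Without the number range as a term, Spdef and Bcas1 passed (adjusted p = 0.0254 and 0.0483 in limma) and Agr2 and Capn9 did not (adjusted p = 0.112 and 0.0781), beside 0.750% of all probe sets higher in that fit. With the replicate number added as a block, 3 of the 10 were higher and 0.354% of all probe sets. The high number range alone, with 2 vehicle arrays, gave no call among the 10 genes and 0.0250% of all probe sets, and the low range alone gave 2 of 10, Spdef and Agr2, and 0.704% of all. A difference of the effect between the ranges was called for none of the 10 genes. With 2 TUDCA arrays in the low range and 2 vehicle arrays in the high range, that test can miss differences. The interaction term had 0 calls in limma over all probe sets (7.68% at an unadjusted p under 0.05), and none of the 10 at an unadjusted p under 0.05.

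**Figure D4:**
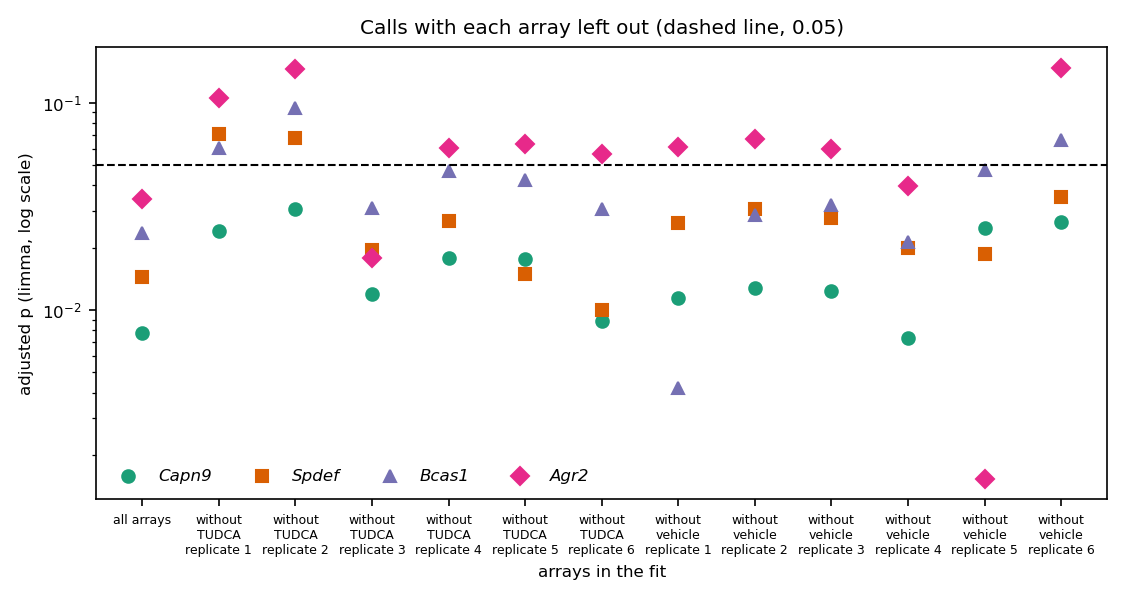
Adjusted p in limma (y axis, log scale) of the 4 goblet cell genes that rose, over all arrays and with each of the 12 arrays left out (x axis); the dashed line is 0.05. Capn9 stays below the line in all 12 fits and Agr2 in 3.

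Some other goblet cell genes were also higher. Of 27 measured genes on a list of further genes known from goblet cells, 6 passed the test upwards and 0 downwards. Over all probe sets 1.00% were higher and 1.52% lower by the same rule. The median log2 difference of the 27 genes was 0.31. A difference above 0 was found for 25 of the 27, and for 12789 of all 23991 probe sets. Reg4, a secreted lectin of secretory cells, had a log2 mean of 11.50 ± 0.23 in TUDCA arrays and 10.11 ± 0.40 in vehicle arrays (SD, n = 6 each), a difference of 1.51 (adjusted p = 0.000103 in limma). The tetraspanin Tspan1 rose by 0.43, with 9.11 in TUDCA and 8.64 in vehicle arrays. All its TUDCA arrays were above all vehicle arrays, as for 0.800% of all probe sets. The tryptase Tpsg1 rose by 0.51 and Rep15, a Rab15 effector, by 0.39. Also past the threshold, and named here after their values were seen, were Smim6 (0.36) and Guca2a, the precursor of guanylin (0.30). Retnlb, the antibacterial resistin-like protein, had 6.70 ± 0.63 in TUDCA and 5.59 ± 1.09 in vehicle arrays (SD, n = 6 each) and did not pass. Its difference estimated within the number ranges was 0.64 (adjusted p = 0.319 in limma), with 1.13 in the low and 0.16 in the high range. The goblet cell stress sensor Ern2 did not pass either (0.28, adjusted p = 0.397).

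The other mucins gave no call. Of 10 measured mucin genes besides Muc2 none passed, and the median log2 difference was -0.07. The membrane mucins Muc3 and Muc13 of the enterocyte surface had differences of -0.22 and -0.17 (adjusted p = 0.183 and 0.402 in limma). The gastric and airway mucins Muc5ac and Muc5b, named here after their values were seen, were dim in both groups (Muc5ac 4.73 in TUDCA and 4.82 in vehicle arrays, Muc5b 5.17 in TUDCA and 5.25 in vehicle arrays).

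Among 31 enzymes of mucin O-glycosylation, 2 rose and 1 fell, with a median difference of 0.07. Over all probe sets 1.00% were higher and 1.52% lower. Gcnt3, which makes the branched core 2 and core 4 glycans of mucins, had 8.86 ± 0.22 in TUDCA and 8.21 ± 0.36 in vehicle arrays (SD, n = 6 each; 0.73 ± 0.15 SE, adjusted p = 0.0155 in limma). Galnt5, an initiating GalNAc transferase, had 7.69 ± 0.11 in TUDCA and 7.12 ± 0.34 in vehicle arrays (SD, n = 6 each; 0.62 ± 0.13 SE, adjusted p = 0.0223). B3gnt6, the core 3 synthase of intestinal mucin, ran the other way, with 6.23 ± 0.23 in TUDCA and 6.79 ± 0.17 in vehicle arrays (SD, n = 6 each; -0.62 ± 0.11 SE, adjusted p = 0.00554). For all of Gcnt3, Galnt5 and B3gnt6 the groups did not overlap, as for 0.800% of all probe sets upwards and 1.18% downwards. Galnt12 (0.39, adjusted p = 0.0538), the sialyltransferase St6galnac1 (0.13, adjusted p = 0.718) and the core 1 synthase C1galt1 (0.14, adjusted p = 0.421) did not pass.

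Of 21 genes of granule release and of the fluid and enzymes that unfold mucus, none rose and 2 fell. Over all probe sets 1.00% were higher and 1.52% lower. Mep1b, the brush border protease meprin beta that detaches Muc2 mucus in the mouse small intestine, had 11.69 ± 0.07 in TUDCA and 12.03 ± 0.04 in vehicle arrays (SD, n = 6 each; -0.36 ± 0.05 SE, adjusted p = 0.00171 in limma). Slc26a6, an apical anion exchanger, had 9.90 ± 0.16 in TUDCA and 10.28 ± 0.07 in vehicle arrays (SD, n = 6 each; -0.35 ± 0.07 SE, adjusted p = 0.0172). For Mep1b and Slc26a6 all TUDCA arrays were below all vehicle arrays, as for 1.18% of all probe sets. The chloride channel Cftr had a difference of 0.031 (adjusted p = 0.916).

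Beside Spdef, which rose, and Atoh1, which did not pass, no call was made among other genes of fate choice. None of 23 further secretory fate factors and ligands, a list that leaves out Spdef and Atoh1, passed (median difference 0.06), and none of 24 Notch pathway genes (median -0.08). Foxa1, a forkhead factor of secretory differentiation, had 8.38 ± 0.17 in TUDCA and 8.06 ± 0.11 in vehicle arrays (SD, n = 6 each) and missed the threshold (0.33, adjusted p = 0.0554 in limma). The Notch ligand Dll4 was at -0.48 (adjusted p = 0.0749) and Dll1 at 0.033 (adjusted p = 0.888). Klf4, a factor of terminal goblet cell differentiation, was at -0.23 (adjusted p = 0.166), Gfi1, which favours goblet and Paneth fate over the enteroendocrine fate, at -0.082 (adjusted p = 0.842), and Neurog3, the enteroendocrine switch, at 0.20 (adjusted p = 0.393). The Notch target Hes1, a repressor of Atoh1, was at 0.21 (adjusted p = 0.367), and Notch1 at -0.12 (adjusted p = 0.516).

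Of 24 folding and disulfide enzymes of the secretory pathway, which Agr2 belongs to by function, 3 rose and 1 fell (median difference 0.15). Over all probe sets 1.00% were higher and 1.52% lower. Ero1a, an oxidase that feeds disulfide isomerases, rose by 0.31, with 9.99 in TUDCA and 9.62 in vehicle arrays (adjusted p = 0.0397 in limma), and its paralogue Ero1b fell by 0.32 (adjusted p = 0.0413). Tmed3, a trafficking protein kept on this list, rose by 0.25. Agr3, the closest relative of Agr2, rose by 0.31 at values near the lower end of the arrays (3.67 in TUDCA and 3.43 in vehicle arrays).

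Among other epithelial cell types, only genes of absorptive enterocytes gave calls, all of them lower. None of 11 Paneth cell, 15 enteroendocrine, 12 tuft cell or 11 stem cell genes passed, with median differences of -0.08, 0.01, -0.09 and 0.06. Of 18 genes of absorptive enterocytes none rose and 3 fell (median -0.15), where 1.00% of all probe sets were higher and 1.52% lower. A difference above 0 was found for 4 of the 18. Among those that fell was the peptide transporter Slc15a1 (-0.70, adjusted p = 0.000788 in limma). Of 14 genes of all epithelial cells, 1 rose, the keratin Krt8 (0.28), and 1 fell, the claudin Cldn15 (-0.30), and their mean lay from 10.66 to 10.96 in TUDCA and from 10.74 to 10.83 in vehicle arrays. After arrays were centred on these 14 genes, Agr2 (0.51, adjusted p = 0.0311), Bcas1 (0.54, adjusted p = 0.0421) and Capn9 (0.46, adjusted p = 0.0386) were still past the threshold, beside 0.521% of all probe sets. Spdef then missed it (0.34, adjusted p = 0.0564). Differences between these lists and the goblet cell genes were not tested.

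**Figure D5:**
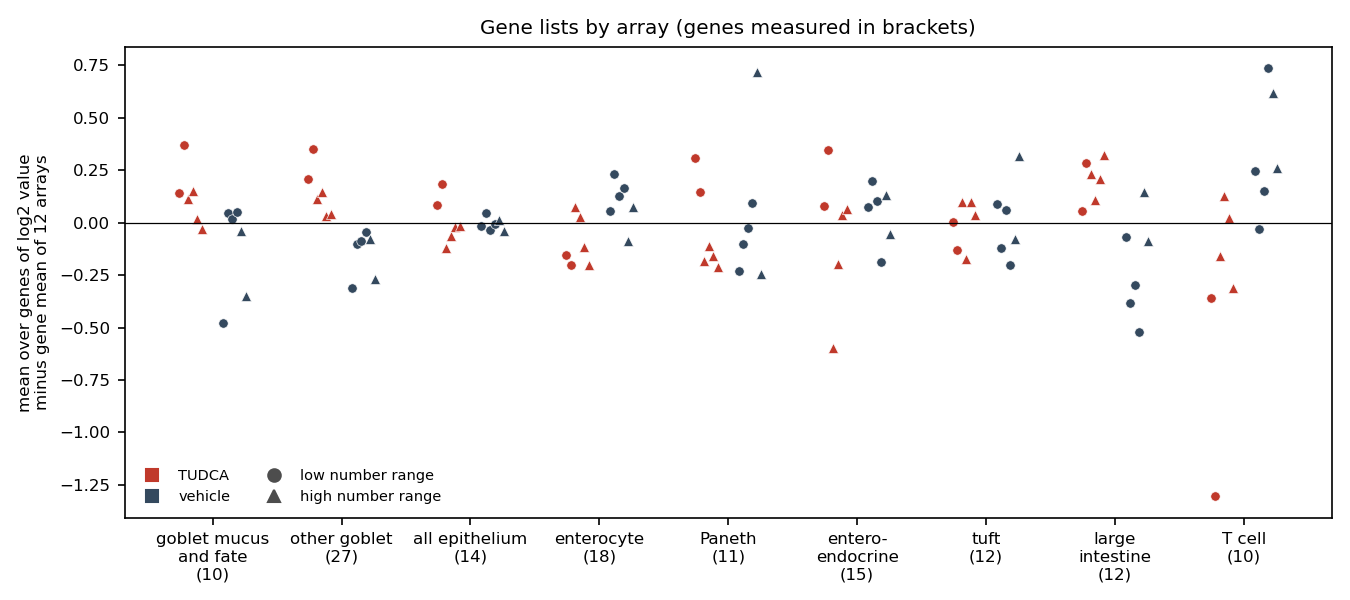
List average of log2 values, each gene first centred on its 12-array mean (y axis), in each TUDCA (red) and vehicle (dark) array, for 9 gene lists (x axis, with the genes measured); circles and triangles are the low and high number ranges. The groups are apart for the other goblet cell genes, overlap for the 10 mucus and fate genes, and T cell genes reach -1.30 in TUDCA replicate 2.

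Some markers of gut region and of T cells also differed between the groups. Beside the counts below, 1.00% of all probe sets were higher and 1.52% lower. Goblet cells are more frequent towards the distal gut, so regional markers are given here. Of 12 large intestine genes, which include Retnlb, 2 rose, the carbonic anhydrase Car1 (6.00 ± 0.69 in TUDCA and 4.54 ± 0.47 in vehicle arrays, SD, n = 6 each) and the pentraxin Mptx1 (5.49 ± 0.52 in TUDCA and 4.52 ± 0.29 in vehicle arrays, SD, n = 6 each). Their median log2 difference was 0.22, and 9 of the 12 had a difference above 0, as did 12789 of all 23991 probe sets. The summed level of these 12 genes, as log2, lay from 11.42 to 11.67 in TUDCA and from 11.19 to 11.79 in vehicle arrays. Their list average of centred values lay from 0.06 to 0.32 in TUDCA and from -0.52 to 0.15 in vehicle arrays. The posterior factors Hoxb13 and Hoxd13 of this list, named here after their values were seen, were dim in both groups (Hoxb13 4.90 in TUDCA and 4.86 in vehicle arrays, Hoxd13 4.72 in TUDCA and 4.74 in vehicle arrays). They do not stand for the other genes of the list. Of 12 proximal small intestine genes 1 fell, S100g (-2.77), with a median difference of -0.10 and 5 of 12 above 0. Their summed levels lay from 9.40 to 10.95 in TUDCA and from 11.69 to 12.28 in vehicle arrays. Their list averages lay from -0.41 to 0.037 in TUDCA and from 0.046 to 0.33 in vehicle arrays, without overlap. S100g alone lay from 7.34 to 10.31 in TUDCA and from 11.18 to 12.09 in vehicle arrays. These sums and list averages thus lean on S100g, and neither was computed without it. Of 10 distal genes 3 fell, among them Enpp7 (-2.44) and Mep1a (-0.84), with a median difference of -0.35 and 1 of 10 above 0. Their summed levels lay from 14.03 to 14.39 in TUDCA and from 14.36 to 14.74 in vehicle arrays. Their list averages lay from -0.65 to 0.05 in TUDCA and from 0.14 to 0.60 in vehicle arrays, without overlap. The ileal bile acid binding protein Fabp6 was at -0.043 (adjusted p = 0.915 in limma). Of 10 T cell genes 6 fell and none rose (median -0.80), with summed levels from 9.23 to 10.64 in TUDCA and from 10.59 to 11.40 in vehicle arrays. The part of region and of T cell content in the goblet gene differences was not tested.

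The genes whose pattern was most like that of the 10 depended on whether group and number range means were removed. By Pearson correlation over the 12 arrays with the mean of the 10 genes, each centred on its own mean, they were Sytl2 (0.95), a Rab27 effector of granule exocytosis, Klk1 (0.93), a kallikrein protease, Gcnt3 (0.93), Hepacam2 (0.92) and Galnt12 (0.91). By rank (Spearman) correlation Hepacam2 had only 0.50, and the rest had from 0.79 (Gcnt3) to 0.94 (Galnt12). After removal of the group and number range means, the Pearson correlations of these 5 genes were 0.91, 0.88, 0.90, 0.90 and 0.85. Ranked on those remaining deviations, the 5 most alike were instead Tprkb (0.96), P2ry4 (0.92), Sytl2 (0.91), Zfp329 (0.91) and Mnx1 (0.90), of which Sytl2 alone was on a goblet cell list. None of these passed the test between groups, and Tprkb, P2ry4, Zfp329 and Mnx1 are named here after their values were seen. The 12 points share the groups and the arrays, so the values describe likeness of pattern in these arrays. Klk1 had 11.47 ± 0.30 in TUDCA and 10.97 ± 0.48 in vehicle arrays (SD, n = 6 each) and a difference of 0.65 that missed the threshold (adjusted p = 0.0573 in limma). Of the 5 genes most alike over the 12 arrays only Gcnt3 passed, and Sytl2, Klk1, Hepacam2 and Galnt12 were on the list of further goblet cell genes.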

How the data were processed

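Biotin-labelled RNA of small intestine from 12 transplanted mice was measured on Affymetrix mouse gene arrays, per the labels' protocols. For every probe set the authors deposited a log2 value in each array, made with oligo and RMA (background correction, quantile normalisation and summarisation of probes), per the submitters' processing notes, with no versions. Quantile normalisation makes arrays alike in distribution and hides shifts of all transcripts. Precision is limited by how many arrays there are. Of 23991 probe sets, 21557 named 1 gene. A linear model with treatment and number range as terms was fitted over all probe sets (limma 3.58.1, R 4.3.3, lmFit and eBayes with a trend, two-sided). The meaning of the number ranges is not given in the labels. The p-values take arrays as separate mice, going by their sample numbers, and otherwise measure only the spread between samples. In simulated data with 200 of 23991 probe sets changed between TUDCA and vehicle, 10% of those changed by 0.25, 50% at 0.5, 96% at 1 and 100% at 2 log2 units were recovered.

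The genes, lists and tests were chosen with earlier results of these data known. Named genes were the 10 genes, up to 4 genes with the smallest p of each pathway list and up to 2 of each marker list, a fixed set, and the 5 genes most alike in pattern. The lists were goblet cell, mucin, glycosylation, release, fate, Notch, folding, epithelial, cell type and regional genes. Those of smooth muscle (10 genes), fibroblasts (9), macrophages (8), B and plasma cells (9) and Brunner gland, stomach and pancreas (9) had no member past the threshold. Nothing in the labels ties same-numbered mice of the 2 groups together, so they were not treated as pairs. Alternatives varied the terms, filter, scaling, variance model and arrays.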

Additional observations from a re-analysis of the deposited data

How the results depend on the processing

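Among the alternatives, the 4 calls of Spdef, Agr2, Bcas1 and Capn9 were unchanged with dim probe sets left out, with renewed quantile normalisation, with arrays centred on the median, with robust variances and with array weights. Without a variance trend 3 of the 10 genes were called, beside 0.738% of all probe sets higher and 1.20% lower. Counts of the 10 genes past the threshold were 2 without the number range term, 2 in the low number range alone, 0 in the high number range alone and 2 without vehicle replicates 1 and 6 together (added after seeing the data). With each array left out they ran from 1 to 4, the 1 being Capn9, without TUDCA replicate 1 or 2. As a share of all probe sets, leaving out each array gave from 0.379% to 1.22% higher and from 0.629% to 1.74% lower, the lowest both times without TUDCA replicate 1. Higher shares were 1.82% with array weights and 0.521% with arrays centred on epithelial genes. The high range alone gave 0.025% higher and 0.0125% lower, and the fit without vehicle replicates 1 and 6 gave 0.488% higher and 0.688% lower. A block for the replicate number, added to the range term, gave 0.354% higher and 0.792% lower, and Spdef was not called (0.36, adjusted p = 0.124 in limma). Deviations of same-numbered arrays correlated from -0.06 to 0.26, with 3 of 6 above 0.1. Of the TUDCA arrays, 4 of 6 correlated best with the vehicle array of their own number, a hint from the data and not from the design. The sign of the 2 differences near 0 turned. Fcgbp was at 0.074 in the low range and 0.012 with renewed quantile normalisation, and from -0.16 to 0.089 with an array left out. Clca1 was at -0.019 in the high range, -0.041 with epithelial centring, -0.18 without vehicle replicates 1 and 6, and from -0.084 to 0.084 with an array left out. The causes were not tested. None of the 20 groups of 6 values (10 genes in 2 groups) held an array past Dixon's 95% critical value. There were no detection calls, and differences of dim genes such as Agr3 may be compressed, which was not tested.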
